A study of Mus musculus with 4 samples.

Results

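Claudins, connexins, pannexins and the other genes of tight and gap junctions were followed in interstitial cells that express EGFP in the mouse testis. Members were every row of the deposited expression table whose symbol is a numbered claudin other than Cldn11, a connexin (Gja to Gje), a Tjp gene, Panx1 to Panx3, Ocln, Marveld2, Marveld3, F11r, Jam2, Jam3, Cgn, Cgnl1 or Cxadr. This gave 57 of 22802 rows, made up of 22 claudins, 20 connexins, 3 pannexins, 3 MARVEL proteins, 4 members of the JAM family and 5 plaque proteins. The compared groups were 2 laminin-positive and 2 laminin-negative samples, sorted from dispersed testes of C57BL/6J mice at postnatal day 10. All 4 carried the mFLE-Cre transgene and the CAG-CAT-EGFP reporter, which turns on EGFP once Cre has acted. The promoter behind mFLE-Cre is not spelled out in the labels. The sample labels call both populations EGFP-positive, but the series' design calls EGFP weak in the laminin-negative cells, so EGFP level and laminin staining cannot be told apart as the sorting variable. The labels do not say whether the 2 samples of a group are different animals, so p-values cover only sample-to-sample spread, which could be technical.

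Connexins assemble in the membrane as hexameric channels that dock with those of the neighbouring cell to form gap junctions, through which ions and small metabolites pass. Claudins are the strands of tight junctions and set their permeability. Occludin and tricellulin run in the same strands, JAM proteins sit beside them as immunoglobulin-type adhesion molecules, and ZO proteins and cingulins link the strand to actin. In the testis these genes are best known for the barrier between Sertoli cells, while Leydig cells are coupled by gap junctions of Cx43, the product of Gja1.

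Values are FPKM, that is, fragments scaled to the length of the transcript and to the mapped total, so levels of different genes can be compared within a library. FPKM summed to 491475 to 548986 per library, and 11794 to 12011 rows reached 1 FPKM. Replicates correlated at r = 0.996 (laminin-positive) and r = 0.994 (laminin-negative) across 12348 tested genes, against 0.898 to 0.903 between populations, where genes are not independent replicates. FPKM carries no read counts and the depth stays unknown, so no counting interval is given. Smooth muscle and peritubular myoid markers (6 genes) summed to 5345 and 5404 FPKM in laminin-positive and 167 and 154 FPKM in laminin-negative libraries. Leydig markers (5 genes) summed to 80.2 and 73.6 FPKM in laminin-positive and 744 and 746 FPKM in laminin-negative libraries.

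A gene was tested when it reached 1 FPKM in at least 2 libraries, using limma on log2(FPKM + 1) with Benjamini-Hochberg adjustment over all tested genes. Of the 57 members, 16 were tested: 5 connexins, 3 claudins, 3 JAM proteins, 4 plaque proteins and Panx1. Of these 16, 5 (Gja4, Gjd3, Cldn3 and Cgn among them) passed the filter only through the laminin-positive libraries, so a difference was built into their selection. At adjusted p under 0.05, 11 tested members were higher in laminin-positive cells and 3 lower, where 52.9% of all tested genes were called, 26.6% higher and 26.3% lower. A called log2 difference of at least 1 was found for 3 higher members (Gja4, Gjc1 and Gjd3) and 3 lower ones (Cldn1, Gja1 and F11r), against 13.2% of all tested genes (7.29% higher and 5.89% lower). The libraries of a population lay wholly beyond those of the other for all 16, 13 higher in laminin-positive cells and 3 lower, as they did for 77.2% of all tested genes (39.4% higher and 37.8% lower). Given the filter, these counts describe the members and were not read as a property of junction genes.

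**Figure D1:**
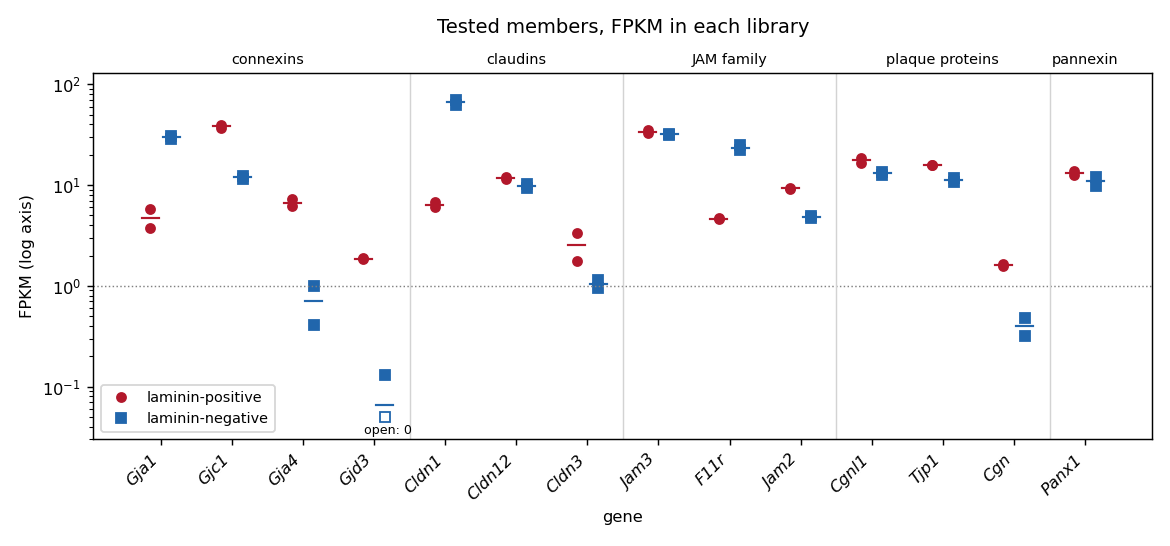
FPKM of 14 of the tested members in each library on a log axis, with laminin-positive libraries as red circles left of laminin-negative libraries as blue squares, short bars for group means, and an open square for a value of 0. Cldn1, Gja1 and F11r stand lower in laminin-positive cells, whereas Gjc1, Gja4 and Gjd3 stand higher.

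The upstream sequences of Gja1, Cldn1, F11r and Gja4 are shown first, because these are the members with both a called log2 difference of at least 1 and a promoter entry; the first 3 were lower in laminin-positive cells and Gja4 was higher. RefSeq promoter windows of 300 bases (250 before to 50 after the annotated start, GRCm38.p6) were found for 10 of the 16 tested members; Gjc1, Gjd3, Jam2 and Jam3 are among those without one and are named only. Gja1 lies at chr10:56377050-56377349 on the plus strand, Cldn1 at chr16:26371790-26372089 on the minus strand, F11r at chr1:171437311-171437610 on the plus strand and Gja4 at chr4:127313990-127314289 on the minus strand. Each is written 5′ to 3′, with capitals for any match to a searched motif.
Gja1: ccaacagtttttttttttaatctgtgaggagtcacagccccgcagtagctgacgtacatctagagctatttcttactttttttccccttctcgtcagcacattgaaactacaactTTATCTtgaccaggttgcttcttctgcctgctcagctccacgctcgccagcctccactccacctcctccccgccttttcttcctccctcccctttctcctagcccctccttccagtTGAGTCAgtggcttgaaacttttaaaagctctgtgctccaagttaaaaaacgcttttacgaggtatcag
Cldn1: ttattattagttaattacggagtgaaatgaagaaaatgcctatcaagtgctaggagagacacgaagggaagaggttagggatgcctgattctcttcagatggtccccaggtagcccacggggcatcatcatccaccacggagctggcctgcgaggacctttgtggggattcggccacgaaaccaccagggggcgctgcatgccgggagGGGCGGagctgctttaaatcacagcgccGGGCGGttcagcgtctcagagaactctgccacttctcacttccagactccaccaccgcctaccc
F11r: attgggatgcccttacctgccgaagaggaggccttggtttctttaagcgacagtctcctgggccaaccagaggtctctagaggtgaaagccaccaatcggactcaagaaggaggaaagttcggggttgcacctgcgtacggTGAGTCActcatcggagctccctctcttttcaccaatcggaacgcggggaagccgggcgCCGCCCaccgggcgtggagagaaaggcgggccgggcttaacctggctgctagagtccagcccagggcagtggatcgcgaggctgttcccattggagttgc
Gja4: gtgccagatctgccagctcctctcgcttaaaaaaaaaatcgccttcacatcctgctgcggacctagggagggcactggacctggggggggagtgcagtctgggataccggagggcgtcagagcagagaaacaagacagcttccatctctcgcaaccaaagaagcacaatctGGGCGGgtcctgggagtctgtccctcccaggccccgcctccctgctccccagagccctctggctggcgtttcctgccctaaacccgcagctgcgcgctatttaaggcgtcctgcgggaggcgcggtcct
Searched on both strands were the TATA box TATAAA, the GC box GGGCGG, the AP-1 site TGANTCA, the NR5A site CAAGGTCA, the RBPJ site GTGGGAA, the GATA site AGATAA and the CArG box. The AP-1 letters stand in the windows of Gja1 and F11r, starting at position -19 and -109 from the transcription start, and in 7.81% of all 32851 promoters. The GC box stands in the Cldn1, F11r and Gja4 windows (2 matches for Cldn1), in those of Cgn, Cgnl1, Cldn3, Cldn12 and Tjp1, and in 35.7% of all promoters. The GATA letters stand in the Gja1 window, at -135, and in 11.2% of all promoters. No tested member with a window held the NR5A letters (1.56% of all promoters) or the TATA letters (13.6%), the RBPJ letters stand in the Cgnl1 window (6.38%), and a CArG box in the Cldn12 windows (1.63%). A match describes letters, and no use of these sites was measured.

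Connexin transcripts were led by a different gene in each population. Gja1, which encodes Cx43, stood at 5.73 and 3.77 FPKM in laminin-positive libraries and 28.96 and 30.5 FPKM in laminin-negative libraries. The groups did not overlap, and the mean was 6.26-fold higher in laminin-negative cells (log2 difference -2.44, SE 0.14, limma adjusted p = 1.35e-07). With variance not shared across genes the call was lost at adjusted p = 0.0502, the highest of the 12 alternatives, whose lowest was 1.16e-15. Gja1 ranked 127th from the lowest difference among 12348 tested genes. Gjc1, which encodes Cx45, ran the other way, at 36.96 and 39.5 FPKM in laminin-positive libraries and 12.3 and 11.5 FPKM in laminin-negative libraries. Its mean was 3.21-fold higher in laminin-positive cells (log2 difference 1.60, SE 0.08, limma adjusted p = 5.88e-08). In bulk RNA, fewer cells of a type and less RNA per cell cannot be told apart.

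The ratio of Gjc1 to Gja1 within a library, which no scaling between libraries can alter, was 6.45 and 10.5 in laminin-positive and 0.426 and 0.376 in laminin-negative libraries. The sum over all 20 connexins differed far less, at 55.97 ± 0.729 FPKM in laminin-positive cells and 44.9 ± 0.425 FPKM in laminin-negative cells (SD, n = 2 each, not tested). Of that sum, Gjc1 held 68.3 ± 2.34% in laminin-positive cells and 26.5 ± 1.08% in laminin-negative cells. Gja1 held 8.51 ± 2.59% in laminin-positive cells and 66.3 ± 3.12% in laminin-negative cells. The most abundant connexin was thus Gjc1 in both laminin-positive libraries and Gja1 in both laminin-negative ones. Each library gives 1 value per gene, and whether Gja1 and Gjc1 came from the same cells was not measured.

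**Figure D2:**
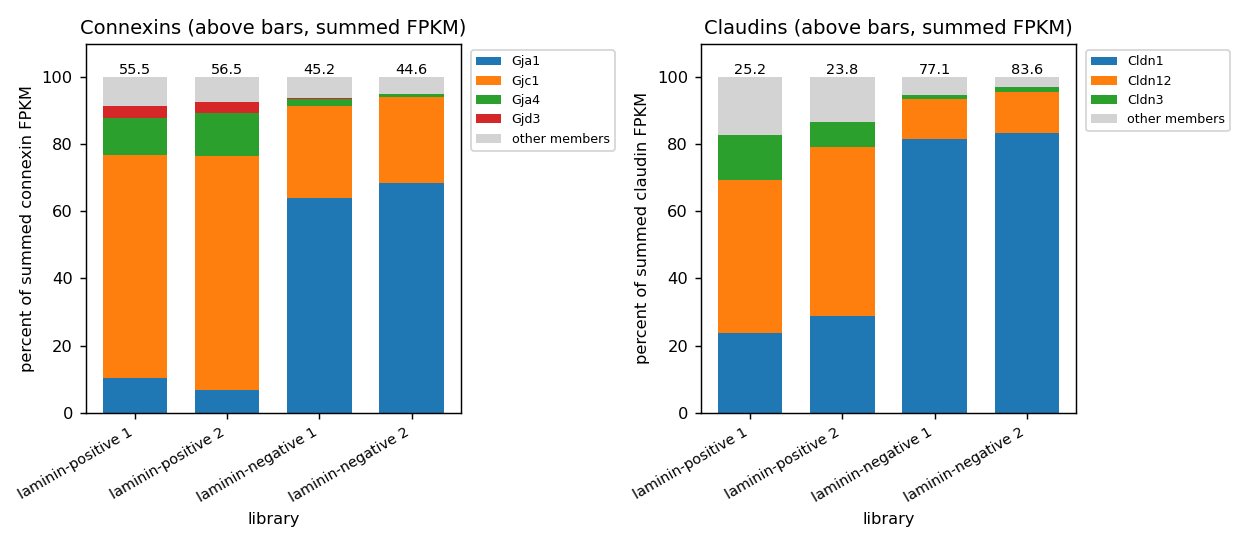
Percent of the summed connexin FPKM (left) and claudin FPKM (right) held by the members named in the key and by all other members together, with 1 bar per library, laminin-positive left of laminin-negative, and the summed FPKM above each bar. Gjc1 and Cldn12 hold the largest share in laminin-positive libraries, and Gja1 and Cldn1 in laminin-negative ones. Cldn11 is not a member and is left out of the claudin sum.

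Gja4, the Cx37 gene known from arterial endothelium and vascular smooth muscle, stood at 6.14 and 7.20 FPKM in laminin-positive libraries and 1.004 and 0.410 FPKM in laminin-negative libraries. This was the largest rise among the tested members on the log2(FPKM + 1) scale (log2 difference 2.19, SE 0.16, limma adjusted p = 1.10e-06), but the call was lost at adjusted p = 0.0606 when variance was not shared across genes (lowest over the alternatives 1.55e-10). It brought the Gja4 share of connexin FPKM to 11.9 ± 1.19% in laminin-positive cells, against 1.57 ± 0.921% in laminin-negative cells. Gjd3, the gene of Cx30.2, stood at 1.88 and 1.85 FPKM in laminin-positive libraries and 0.131 and 0 FPKM in laminin-negative libraries (log2 difference 1.43, SE 0.13, limma adjusted p = 5.60e-06). Its laminin-negative values lie where FPKM is least certain, and no fold is given. On the log2(FPKM + 0.1) scale its difference was 3.69 and that of Gja4 was 3.17, so the order of these rises depends on the pseudocount.

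Pericyte markers moved with the rising connexins, as 6 of 6 were higher and their sum was 310 and 315 FPKM in laminin-positive and 49.6 and 46.0 FPKM in laminin-negative libraries; their part in the result was not tested. Smooth muscle and peritubular myoid markers were likewise higher in 6 of 6 cases, where 26.6% of all tested genes were called higher. Endothelial markers were mixed, with 2 of 5 tested higher (Esam and Emcn) and 2 lower (Cdh5 and Tek). Esam and Emcn passed the filter only through the laminin-positive libraries, and Tek only through the laminin-negative ones. A difference was thus built into the selection of these genes. Esam, an endothelial adhesion gene, ran the same way as Gja4, at 6.34 and 6.45 FPKM in laminin-positive and 0.216 and 0.531 FPKM in laminin-negative libraries (log2 difference 2.44, SE 0.14, limma adjusted p = 1.03e-07). Emcn stood at 1.87 and 2.32 FPKM in laminin-positive and 0.585 and 0.900 FPKM in laminin-negative libraries, and the part of these markers was not tested. Pecam1, Kdr and Tie1 were not tested. Pecam1 stood at 0.869 and 0.615 FPKM in laminin-positive and 0.126 and 0.141 FPKM in laminin-negative libraries. Kdr stood at 0.586 and 0.411 FPKM in laminin-positive and 0.0803 and 0.0437 FPKM in laminin-negative libraries. Tie1 stood at 0.283 and 0.385 FPKM in laminin-positive libraries and was listed at 0 in both laminin-negative libraries. Cdh5, the gene of VE-cadherin, stood at 9.89 and 9.25 FPKM in laminin-positive and 165 and 173 FPKM in laminin-negative libraries, and made up most of the endothelial sum (25.7 and 24.8 FPKM in laminin-positive, 174 and 181 FPKM in laminin-negative libraries). Of the 4 glial markers, Sox10 did not exceed 0.159 FPKM, and the list summed to 3.71 and 3.15 FPKM in laminin-positive and 76.6 and 77.3 FPKM in laminin-negative libraries, where S100b made up nearly all of it. Gja5, the Cx40 gene of arterial endothelium, did not exceed 0.0668 FPKM.

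The other 15 connexins were not tested. Listed at 0 in every library were 4 of them, with Gjb1, Gjd2 and Gjd4 among these, and the highest value of any of the other 11 was 0.587 FPKM. That value was for Gja6, a testis connexin on the X chromosome (160902116 to 160907052), whose table row spans neighbouring genes and is therefore uncertain. On chromosome 14 the neighbours Gja3, Gjb2 and Gjb6 did not exceed 0.121 FPKM. Gjb1, Gjb2 and Gjb6, beta-type connexins that epithelia use, were thus at or near 0 in both populations.

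Among the tested claudin members, which leave out Cldn11, the largest difference between populations was that of Cldn1. This strand-forming claudin of epithelial barriers (chromosome 16, 26356642 to 26371841) stood at 6.00 and 6.82 FPKM in laminin-positive libraries and 62.9 and 69.9 FPKM in laminin-negative libraries. The mean was 10.4-fold higher in laminin-negative cells (log2 difference -3.19, SE 0.09, limma adjusted p = 7.27e-10), the largest difference of any tested member on the log2(FPKM + 1) scale and the 54th lowest among all 12348 tested genes. On the log2(FPKM + 0.1) scale its difference was -3.35, smaller in size than the 3.69 of Gjd3. The call held under all 12 alternatives, with adjusted p between 5.87e-18 and 0.0226. Cldn16, which lies next to it on the chromosome (26463135 to 26482765), was listed at 0 in every library. Leydig markers moved with Cldn1 and Gja1, as 5 of 5 were lower in laminin-positive cells, where 26.3% of all tested genes were called lower. The part of Leydig markers was not tested.

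Cldn12, a claudin without the C-terminal motif through which most others bind ZO proteins, stood at 11.5 and 11.996 FPKM in laminin-positive and 9.37 and 10.2 FPKM in laminin-negative libraries. Its small difference was at the threshold (log2 difference 0.25, SE 0.09, limma adjusted p = 0.0437), and 6 of 12 alternatives ended the call, among them leaving out either laminin-positive sample or laminin-negative sample 1 (adjusted p 0.00913 to 0.230 over the alternatives). The claudin sum, which leaves out Cldn11, was 24.5 ± 1.02 FPKM in laminin-positive cells and 80.4 ± 4.60 FPKM in laminin-negative cells. Cldn1 held 26.2 ± 3.45% of it in laminin-positive cells and 82.5 ± 1.41% in laminin-negative cells. Cldn12 held 48.1 ± 3.36% in laminin-positive cells and 12.2 ± 0.00239% in laminin-negative cells (SD, n = 2 each). The ratio of Cldn12 to Cldn1 within a library was 1.92 and 1.76 in laminin-positive and 0.149 and 0.145 in laminin-negative libraries. Cldn12 thus led the claudin members in laminin-positive libraries with little difference in its own level. Cldn11, which the members leave out, stood above Cldn12 there, at 20.5 and 13.0 FPKM.

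Cldn3, a claudin of Sertoli cell junctions in the mouse, stood at 3.38 and 1.76 FPKM in laminin-positive and 0.944 and 1.13 FPKM in laminin-negative libraries (log2 difference 0.77, SE 0.19, limma adjusted p = 0.00601). The difference was 0.44 without laminin-positive sample 1 and 1.11 without laminin-positive sample 2 (limma adjusted p = 0.0492 and 9.10e-06). The laminin-positive values were far apart, the row also overlaps Wbscr25, and the call was lost without a filter on low values and without shared variance (adjusted p 9.10e-06 to 0.243 over the alternatives). Among the other 19 claudins, Cldn6, Cldn8, Cldn13, Cldn14, Cldn16, Cldn17 and Cldn18 were listed at 0 in every library, and the highest value of the remaining 12 was 1.14 FPKM. That was Cldn5, the endothelial claudin, at 1.14 and 0.520 FPKM in laminin-positive and 0.0749 and 0.209 FPKM in laminin-negative libraries, below the filter. Cldn7 reached 1.08 FPKM in 1 laminin-positive library and 0.385 FPKM in the other.

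MARVEL genes were at trace levels. Ocln, the occludin gene (chromosome 13, 100496507 to 100552718), stood at 0.443 and 0.914 FPKM in laminin-positive and 0.0107 and 0.0307 FPKM in laminin-negative libraries. Its neighbour Marveld2, the gene of tricellulin, which seals corners where cells meet (100595957 to 100616971), stood at 1.08 and 0.845 FPKM in laminin-positive and 0.416 and 0.451 FPKM in laminin-negative libraries. Both were below the filter. The groups did not overlap for either, nor for Marveld3, which did not exceed 0.0766 FPKM. Over all tested genes, the groups did not overlap for 77.2%.

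Sertoli markers were mixed. Of 8 tested Sertoli markers 4 were higher in laminin-positive cells and 1 lower, and the list of 10 summed to 363 and 357 FPKM in laminin-positive and 320 and 307 FPKM in laminin-negative libraries, mostly Ctsl and Aard. Sox9, the Sertoli transcription factor gene, stood at 8.81 and 6.61 FPKM in laminin-positive and 10.3 and 9.08 FPKM in laminin-negative libraries and was not called, nor were Gata1 and Inha, while Ctsl was the marker called lower. Cldn11, the Sertoli claudin that the members leave out, stood at 20.5 and 13.0 FPKM in laminin-positive and 0.872 and 1.28 FPKM in laminin-negative libraries. Its log2 difference was 3.07 (SE 0.18, limma adjusted p = 1.63e-07). Amh, the Sertoli hormone gene, stood at 6.99 and 4.79 FPKM in laminin-positive and 0.757 and 0.664 FPKM in laminin-negative libraries. Dhh, likewise called higher, stood at 3.27 and 2.59 FPKM in laminin-positive and 0.311 and 0.213 FPKM in laminin-negative libraries. Fshr, not tested, stood at 0.677 and 0.223 FPKM in laminin-positive and 0 and 0.0200 FPKM in laminin-negative libraries. Rhox5, also not tested, stood at 0.899 and 0.911 FPKM in laminin-positive and 0.0907 and 0.0256 FPKM in laminin-negative libraries. Cldn3, Cldn11 and Amh were all higher in laminin-positive sample 1 than in sample 2, whereas Ocln was lower in it. Germ cell markers, higher in 6 of 6 cases, summed to 43.4 and 44.0 FPKM in laminin-positive and 13.5 and 15.2 FPKM in laminin-negative libraries. Macrophage markers, also higher in 6 of 6 cases, summed to 31.9 and 25.9 FPKM in laminin-positive and 4.89 and 3.56 FPKM in laminin-negative libraries. Most macrophage markers and some Sertoli and germ cell markers were below 1 FPKM in both laminin-negative libraries. Those of them that were tested passed the filter only through the laminin-positive libraries, so a difference was built into their selection. Over all tested genes, 26.6% were called higher. Epithelial markers (6 genes) summed to 1.47 and 1.41 FPKM in laminin-positive and 0.595 and 0.654 FPKM in laminin-negative libraries, with Krt19 listed at 0 throughout, and erythroid markers to 0.108 and 1.16 FPKM in laminin-positive and 0.569 and 0.641 FPKM in laminin-negative libraries. The part of these cell types in the low junction values was not tested.

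The JAM family was split. F11r, the JAM-A gene (chromosome 1, 171437535 to 171464603), stood at 4.56 and 4.75 FPKM in laminin-positive and 24.7 and 22.1 FPKM in laminin-negative libraries. Its mean was 5.03-fold higher in laminin-negative cells (log2 difference -2.11, SE 0.09, limma adjusted p = 2.02e-08), and every one of the 12 alternatives kept the call. Jam2, the JAM-B gene, rose to 9.20 and 9.45 FPKM in laminin-positive libraries, against 4.73 and 4.96 FPKM in laminin-negative libraries (log2 difference 0.82, SE 0.10, limma adjusted p = 4.02e-05). Jam3, whose product JAM-C binds JAM-B, was the most abundant of the 4 over all libraries, at 33.1 and 34.8 FPKM in laminin-positive and 31.4 and 32.4 FPKM in laminin-negative libraries. Its difference did not pass the test (log2 difference 0.09, 95% interval -0.08 to 0.25, limma adjusted p = 0.358). The ratio of Jam3 to F11r within a library was 7.25 and 7.33 in laminin-positive and 1.27 and 1.46 in laminin-negative libraries. Cxadr, the gene of the coxsackievirus and adenovirus receptor, did not exceed 0.594 FPKM.

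**Figure D3:**
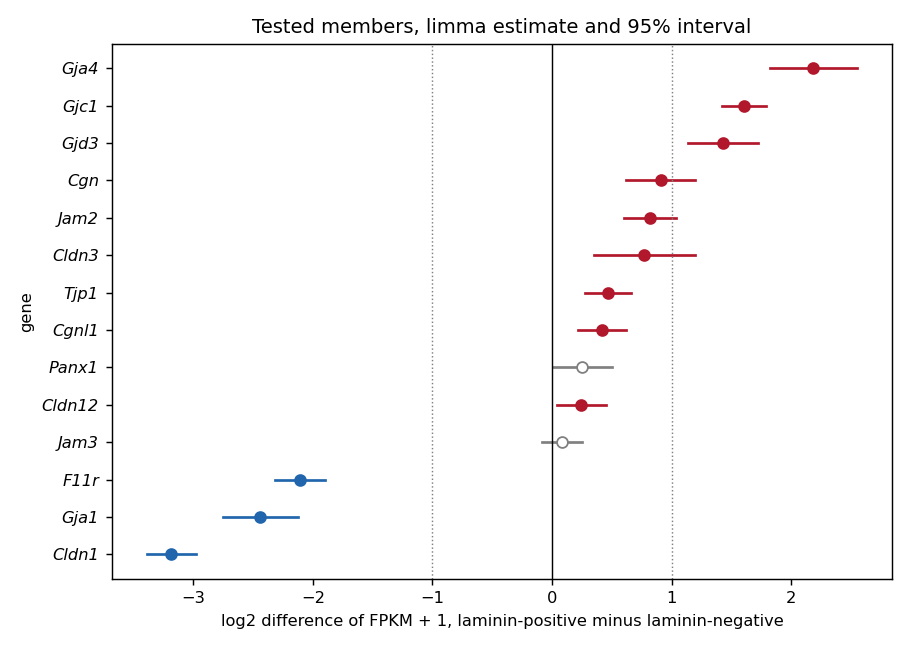
Log2 difference of FPKM + 1, laminin-positive minus laminin-negative, for 14 of the tested members, with 95% intervals from limma; filled points passed the test, red higher and blue lower, and dotted lines mark a difference of 1 in size. Cldn1, Gja1 and F11r lie apart on the lower side, and Jam3 and Panx1 are the open points.

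Plaque genes were present in both populations with small differences. Cgnl1, the paracingulin gene, was the most abundant, at 16.7 and 18.8 FPKM in laminin-positive and 13.4 and 12.7 FPKM in laminin-negative libraries (log2 difference 0.42, SE 0.09, limma adjusted p = 0.00286). Tjp1, the ZO-1 gene, averaged 15.9 ± 0.00311 FPKM in laminin-positive cells and 11.2 ± 0.664 FPKM in laminin-negative cells (log2 difference 0.47, SE 0.09, limma adjusted p = 0.00108). Neither Cgnl1 nor Tjp1 kept its call without shared variance. The adjusted p ranged from 6.27e-04 to 0.102 for Cgnl1 and from 2.56e-04 to 0.0572 for Tjp1 over the alternatives. Cgn, the cingulin gene of epithelial junctions, averaged 1.62 ± 0.0593 FPKM in laminin-positive cells and 0.399 ± 0.117 FPKM in laminin-negative cells (limma adjusted p = 1.63e-04). Tjp3, the ZO-3 gene, did not exceed 0.134 FPKM. Paracingulin transcripts therefore exceeded those of its relative cingulin on the FPKM scale in all 4 libraries.

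Pannexins form channels in the plasma membrane that release ATP and do not usually pair into gap junctions. Panx1 stood at 13.7 and 12.6 FPKM in laminin-positive and 9.70 and 12.1 FPKM in laminin-negative libraries, and did not pass the test (log2 difference 0.25, 95% interval 0.01 to 0.50, limma adjusted p = 0.0796). It was called higher without laminin-negative sample 2, and with libraries set to equal FPKM sums (adjusted p 0.0131 to 0.418 over the alternatives). Panx2 did not exceed 0.141 FPKM and Panx3 was listed at 0 in every library.

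Partners of the junction proteins were read from a list of 24 scaffold and polarity genes. Of 20 tested, 9 were higher in laminin-positive cells and 2 lower, with a median log2 difference of 0.08, against 26.6% higher, 26.3% lower and a median of 0.01 over all tested genes. Pard6b, a subunit of the PAR polarity complex, averaged 2.22 ± 0.316 FPKM in laminin-positive cells and 0.271 ± 0.101 FPKM in laminin-negative cells (log2 difference 1.34, limma adjusted p = 1.19e-05). It passed the filter only through the laminin-positive libraries, so a difference was built into its selection. Amot, the gene of angiomotin, averaged 7.93 ± 0.526 FPKM in laminin-positive cells and 2.65 ± 0.372 FPKM in laminin-negative cells (limma adjusted p = 4.33e-06). Lsr, whose product angulin-1 brings tricellulin to corners between cells, averaged 4.46 ± 0.446 FPKM in laminin-positive cells and 1.30 ± 0.111 FPKM in laminin-negative cells (limma adjusted p = 7.75e-06). The scaffold gene Magi3 fell to 1.71 ± 0.111 FPKM in laminin-positive cells, against 3.35 ± 0.226 FPKM in laminin-negative cells (limma adjusted p = 5.78e-04). Ybx3, whose product is a transcription factor that binds ZO-1, fell to 87.2 ± 3.96 FPKM in laminin-positive cells, against 114 ± 2.15 FPKM in laminin-negative cells (limma adjusted p = 0.00115).

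Of 7 genes for connexin binding and traffic, 5 were higher in laminin-positive cells and 1 lower, with a median log2 difference of 0.26. Over all tested genes, 26.6% were called higher and 26.3% lower, with a median of 0.01. Cav1, the caveolin gene, averaged 282 ± 12.6 FPKM in laminin-positive cells and 172 ± 9.64 FPKM in laminin-negative cells (limma adjusted p = 1.73e-05). Src, a kinase that phosphorylates Cx43, averaged 12.4 ± 0.480 FPKM in laminin-positive cells and 7.78 ± 0.945 FPKM in laminin-negative cells (limma adjusted p = 4.93e-04). Cnst, the gene of the connexin traffic protein consortin, averaged 8.62 ± 0.495 FPKM in laminin-positive cells and 5.89 ± 0.267 FPKM in laminin-negative cells (limma adjusted p = 0.00212). Ubqln4, whose product takes part in Cx43 degradation, averaged 18.1 ± 0.0653 FPKM in laminin-positive cells and 21.8 ± 2.104 FPKM in laminin-negative cells (log2 difference -0.25, limma adjusted p = 0.0334; -0.16 without laminin-negative sample 1), a call that 7 of 12 alternatives ended, including leaving out either laminin-positive sample or laminin-negative sample 1 (adjusted p 0.0123 to 0.263). Src, Cnst and the scaffold list's Ybx3 lost theirs without shared variance. Over the alternatives, adjusted p ranged from 1.08e-04 to 0.0930 for Src, from 4.49e-04 to 0.0666 for Cnst and from 7.97e-04 to 0.0634 for Ybx3.

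**Figure D4:**
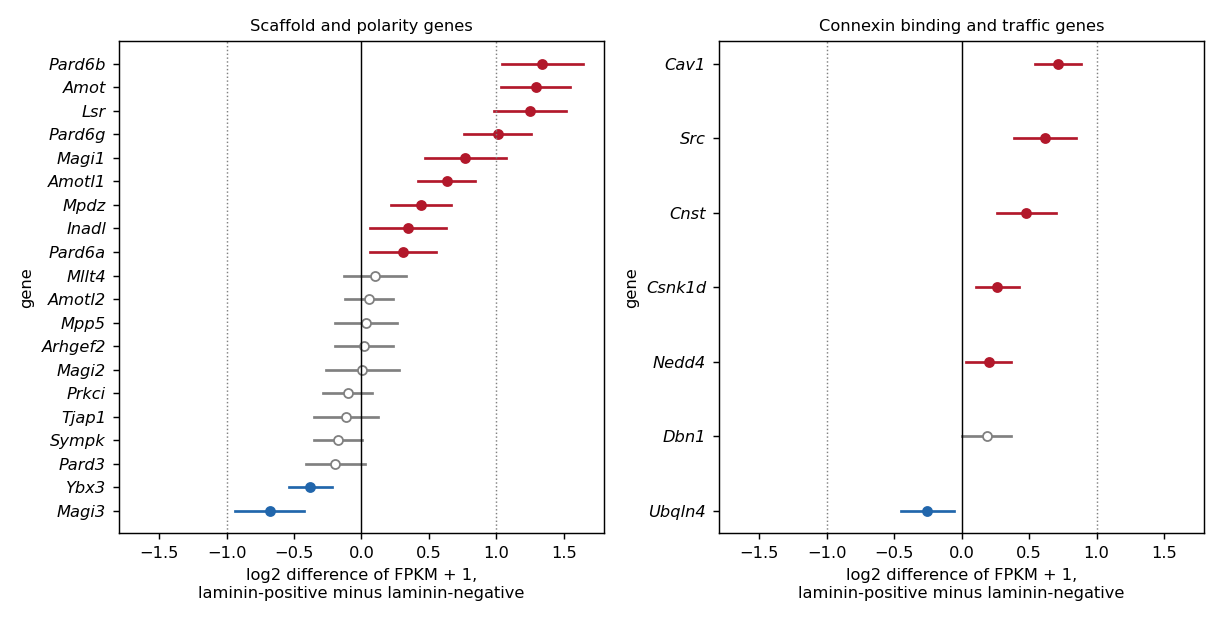
Log2 difference of FPKM + 1, laminin-positive minus laminin-negative, with 95% limma intervals for the tested scaffold and polarity genes (left, 20 genes) and connexin binding and traffic genes (right, 7 genes); filled points passed the test and dotted lines mark a difference of 1 in size. Pard6b, Amot and Lsr lie highest on the left, and no gene of the right panel reaches a difference of 1.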

How the data were processed

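Sorted cells were profiled by RNA sequencing in 2 laminin-positive and 2 laminin-negative samples. The deposited FPKM values come as 1 column per library, per the file headers; TopHat2 2.1.1 and Cufflinks 2.2.1 are listed, with no roles, in the submitters' processing notes. Not given in the sources used here are the genome build, the annotation, the strand setting and any scaling across libraries. Table loci overlapped the GENCODE M21 gene of the same symbol (GRCm38) for 99.6% of 21203 unique symbols and for all 57 members, so GRCm38 coordinates are printed; 6 member rows overlap another row. The low values of genes with 1 transcript were searched for a step of whole fragments. Of these values, 27.2 to 30.0% lay within 0.1 of a multiple of the best of many steps. Values with no step give 20% for a single fixed step, which is not the same measure. Transcript lengths came from GENCODE M21, which may differ from the annotation used, so the check cannot decide whether a step exists.

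The laminin-positive samples were set against the laminin-negative ones by limma 3.58.1 in R 4.3.3 on log2(FPKM + 1), moderated by empirical Bayes with an intensity trend, for genes of at least 1 FPKM in at least 2 libraries; the test is two-sided with 2 residual degrees of freedom. The log scale understates differences near 1 FPKM. Folds are ratios of mean FPKM. The fit was tested on simulated data. Members and gene lists were chosen with earlier results of these data known. Some members and markers enter the counts and sums but are not reported here by name. Values per library are given for tested members with a called log2 difference of at least 1 and for the leading member of each family; other tested members are given by library or group mean. Up to 3 partner genes per list and direction were named by their called difference. Untested members beyond their ranges were singled out after their values were seen. So were the markers Cdh5, Pecam1, Kdr, Tie1, Esam, Emcn, Tek, Amh, Dhh, Rhox5, Fshr, Sox9, Gata1, Inha, Sox10, S100b and Krt19. Marker lists covered Sertoli, endothelial, macrophage, germ, epithelial, glial, Leydig, smooth muscle and peritubular myoid, pericyte and erythroid cells. The alternatives were a pseudocount of 0.1, other filters on low values, other scalings, no intensity trend, no shared variance, a replicate block, and leaving out each sample.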

Additional observations from a re-analysis of the deposited data

How the results depend on the processing

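Over the 16 tested members and 9 partner genes, 268 of 292 recomputed differences kept their direction and call, 22 lost the call, 2 gained it and 0 changed sign. Without variance shared across genes, 2557 of 12348 genes were called instead of 6533, and 8 members (6 higher) instead of 14 (11 higher); the test then rests on 2 residual degrees of freedom. With a filter of 5 FPKM, 9 members (6 higher) were called, of 11 that could be tested, where 5182 of 9274 genes were called. A pseudocount of 0.1 put 6 higher members, instead of 3, at a log2 difference of at least 1. Of all 12348 tested genes, 1185 instead of 900 were then called higher at that size. The same pseudocount gave 1.81 for Cgn instead of 0.91, 1.17 for Cldn3 instead of 0.77 and 2.66 for Pard6b instead of 1.34. Without a filter on low values 18 of 45 members were called, where 6612 of 18255 genes were called. Of these members, Ocln, Marveld2, Cldn5, Cldn22 and Gja6 (higher) and Gjb5 (lower) did not exceed 1.14 FPKM in any library. Leaving out each sample in turn gave 5197 to 6318 called genes, 1632 to 1676 with a log2 difference of at least 1, 13 to 15 called members, 10 to 12 higher and 3 lower, and 3 to 4 higher with a log2 difference of at least 1; the lone sample of an arm is then assumed to vary like the other group. With equal FPKM sums (without Rn45s) the median difference over all genes moved to 0.11 from 0.01, and 64.1% of called genes were higher instead of 50.3%. Deviations of same-numbered samples from their group means correlated at r = 0.01 across tested genes. With 2 pairs this cannot decide whether replicate numbers pair the samples. Rn45s stood at 11992 and 6377 FPKM in laminin-positive and 10659 and 7566 FPKM in laminin-negative samples 1 and 2. With the replicate block 6719 genes, 14 of them members, were called. Summing over tested members only, Cldn1 held 30.9% in laminin-positive cells and 86.0% in laminin-negative cells, and Cldn12 56.7% in laminin-positive cells and 12.7% in laminin-negative cells. The causes of these changes were not tested. The unknown depth limits the values below about 1 FPKM most.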
